A study of Mus musculus with 8 samples.

Results

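The genes described here build or shape the nuclear envelope of the developing sperm: the SUN domain genes Sun1, Sun2, Sun3, Sun5 and Spag4 (also called Sun4), the head shaping genes Dpy19l2 and Rimbp3, and the lamin genes Lmna, Lmnb1 and Lmnb2. They were chosen by name, with earlier results of these data known, and all 10 were found among the 23983 genes of the expression table. The levels come from strand-specific RNA-seq of testis from C57BL/6J mice at 12, 16 and 24 days after birth (d12, d16 and d24) and in adulthood, with 1 library per stage and no mutation or treatment named in the labels. The age of the adult mice and whether tissue from several mice was pooled are not given in the sources used here. Each stage has a lone library, so the differences below have no replicate check and no test between ages was made. The series also has 4 ChIP-seq samples for H3K27Ac, which are not analysed here.

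SUN proteins sit in the inner nuclear membrane and reach across to KASH proteins of the outer membrane, so that the nucleus is tied to the cytoskeleton. Most cells use SUN1 and SUN2, and in meiosis SUN1 holds the chromosome ends at the envelope. During sperm formation the round nucleus is pressed into its final shape by the manchette, a skirt of microtubules, and by the acrosome, a vesicle fixed on its front. Testis-specific SUN proteins, DPY19L2 and RIMBP3 serve at these contacts, while lamins form the meshwork under the inner membrane. In mice the first wave of sperm formation is partly synchronous, so testes of rising age gain spermatocytes and then spermatids.

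Levels are given in FPKM, mapped fragments per kilobase of transcript, as scaled and deposited by the authors. The fragments behind them were recovered from the values and the transcript lengths, and numbered 9322248, 9913993, 24969470 and 12729252 over all genes in the order d12, d16, d24 and adult, which is also the order of other values given as 4 in a row. Intervals in parentheses are exact 95% Poisson intervals of a level or exact 95% Clopper-Pearson intervals of a ratio, and both cover counting error only. A gene was counted as higher or lower when its level, with 0.1 FPKM added, differed by 2-fold or more and reached 1 FPKM in either library. The libraries carried the marker genes of testis cells. The summed FPKM of 6 spermatogonial markers went from 206.3 at d12 to 50.2 in the adult and that of 6 Sertoli cell markers from 180.6 to 63.0. The sum of 6 Leydig cell markers went from 131.6 to 580.7, with 3 of them higher and 3 neither. That of 6 macrophage markers went from 32.7 to 28.9. The sum of 6 peritubular myoid markers went from 257.5 to 307.6, with 1 higher (Actg2) and 4 lower. Those of 6 endothelial and 6 early meiotic spermatocyte markers went from 22.6 to 11.2 and from 680.7 to 779.0. The sum of 6 pachytene spermatocyte markers was 48.8, 839.6, 3874 and 4808 from d12 to adult. That of 6 round spermatid markers was 1.47, 10.51, 416.7 and 1277. At d16 nearly all of the round spermatid sum was Acr, at 9.995 FPKM, the only gene of that list at 1 FPKM or more. The sum of 6 elongating spermatid markers was 13.0, 4.37, 2324 and 26087. In such bulk samples fewer cells of a type and less RNA per cell cannot be told apart.

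On the deposited scale the genes of sperm head shaping were far higher in older testes. On it the widely used Sun1, Sun2 and Lmna were nearly level and Lmnb1 was lower. From d12 to adult testis 6 genes were higher (Sun3, Sun5, Spag4, Dpy19l2, Rimbp3 and Lmnb2), where 36.6% of all genes that could be counted were, and 1 was lower (Lmnb1), where 24.2% were. The other 3, Sun1, Sun2 and Lmna, stayed within 2-fold. These shares depend on how the libraries are scaled, since the FPKM sum in the adult exceeds that at d12. With equal FPKM sums 22.7% of all genes were higher and 52.1% lower, and 5 members were higher and 3 lower (Sun2, Lmna and Lmnb1). With upper quartile scaling the shares were 27.9% and 39.6%, and the members counted were 6 and the same 3. Median of ratios scaling uses the median ratio of genes to their mean over the libraries. It gave 37.0% and 23.6%, with 6 members higher and 1 lower, as on the deposited scale. The rises were spread over the intervals. Between d12 and d16, 3 of the 9 genes that could be counted were higher, namely Sun3, Dpy19l2 and Rimbp3, against 11.7% of all genes. Between d16 and d24, 6 of 10 were higher, namely all 5 strongly rising genes and Lmnb2, against 27.8% of all genes. From d24 to adult testis Sun3, Sun5, Spag4 and Lmnb2 were higher, which is 4 of 10 against 13.4%. No gene was lower in any of the 3 intervals, for which the shares of all genes were 4.22%, 9.13% and 2.08%. The median log2 difference of the counted members was -0.06, 2.16 and 0.27 in the 3 intervals, and that of all counted genes was -0.04, 0.13 and 0.01.

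**Figure D1:**
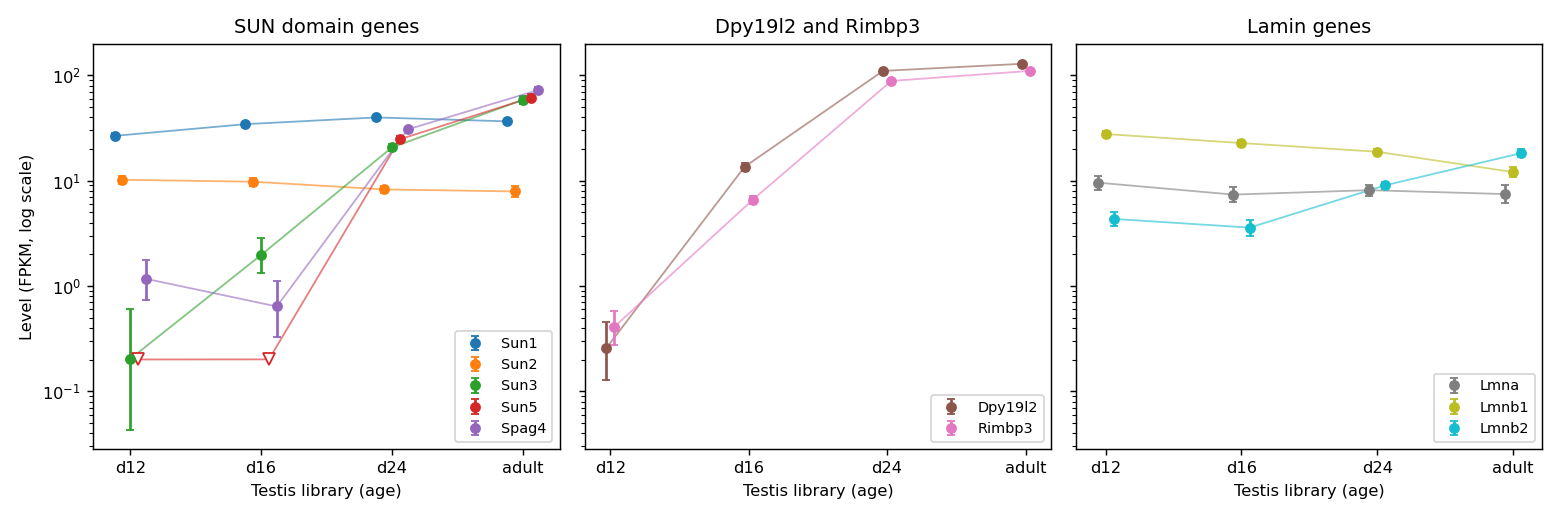
FPKM on a log scale of the SUN domain genes (left), Dpy19l2 and Rimbp3 (middle) and the lamin genes (right) in the 4 testis libraries, with exact 95% Poisson intervals of the counting error. Open triangles mark Sun5 at d12 and d16, where no fragment was found, drawn at the value of 3 fragments (0.201 FPKM). On the deposited scale Sun1, Sun2 and Lmna run nearly level, while Sun3, Sun5, Spag4, Dpy19l2 and Rimbp3 lie under 2 FPKM at d12 and over 50 FPKM in the adult.

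Sun5, whose protein helps to join the sperm tail to the nucleus, was the gene with the sharpest onset. No fragment of Sun5 was found at d12 or d16, and the limit set by 3 fragments is 0.201 FPKM at either age. At d24 it stood at 24.7 FPKM (22.8 to 26.7, about 648 fragments) and in the adult at 61.4 FPKM (56.7 to 66.2). The d24 level was 123 times the 3-fragment limit at d16, and the exact interval puts it at least 99.6-fold higher than at d16. The adult level was 2.48 times that at d24 (2.22 to 2.77). Of the 1510 genes that first reached 2 FPKM at d24, 297 (19.7%) were also listed at 0 at both earlier ages. Sun5 lies on the minus strand of chromosome 2 (GRCm38, 153856188 to 153871365) and has 2 curated RefSeq transcripts of 12 and 13 exons from the same start.

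Spag4 encodes SUN4, which sits in the envelope of spermatids where the manchette meets the nucleus. Its level was low at d12 and d16. Spag4 had 1.17 FPKM at d12 (0.733 to 1.77, 22 fragments) and 0.639 FPKM at d16 (0.330 to 1.12, 12 fragments). The sum of the 6 elongating spermatid markers was likewise above 0 at these ages, at 13.0 FPKM at d12 and 4.37 at d16. The source of such early fragments was not tested. The ratio of d16 to d12 was 0.546 with an interval from 0.247 to 1.15, so a fall was not detectable at this depth. Spag4 then reached 30.6 FPKM at d24 (28.8 to 32.6) and 72.6 in the adult (68.0 to 77.3). These steps were 47.9-fold (27.3 to 93.1) and 2.37-fold (2.17 to 2.59). The gene lies on the plus strand of chromosome 2 (156065188 to 156069501), with 2193823 bp between its annotated span and that of Sun5.

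Sun3, whose protein forms a complex with SUN4 along the manchette, was already higher at d16. Its 3 fragments at d12 gave 0.203 FPKM (0.0426 to 0.603), and 29 fragments at d16 gave 1.97 FPKM (1.34 to 2.87), a ratio of 9.68 (3.00 to 49.7). At d24 Sun3 stood at 20.7 FPKM (18.9 to 22.5) and in the adult at 58.5 (53.9 to 63.3), which are steps of 10.497-fold (7.11 to 15.6) and 2.83-fold (2.51 to 3.19). The d16 interval spans 2 FPKM, the lower limit by which the study selected genes of a stage, so the stage at which Sun3 passes it is within counting error. Sun3 lies on the minus strand of chromosome 11 (9016043 to 9048991). In adult testis the 3 spermatid SUN genes were close in level. Spag4 stood at 1.18 times Sun5 (1.07 to 1.31), and the ratio of Sun3 to Sun5, 0.953 (0.851 to 1.07), did not differ from 1 beyond counting error.

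The annotated promoters of these 3 genes are shown because they differ in sequence while the genes reach similar levels. Each is a window from 250 bases before to 50 bases after the start in RefSeq (GRCm38.p6), read 5′ to 3′ on the strand of the gene: Spag4 at chr2:156064963-156065262 (plus), Sun5 at chr2:153871035-153871334 (minus) and the upstream start of Sun3 at chr11:9048942-9049241 (minus). Capitals mark TGACG on either strand, the core of the cAMP response element that CREM, an activator in spermatids, is known to bind.
Spag4: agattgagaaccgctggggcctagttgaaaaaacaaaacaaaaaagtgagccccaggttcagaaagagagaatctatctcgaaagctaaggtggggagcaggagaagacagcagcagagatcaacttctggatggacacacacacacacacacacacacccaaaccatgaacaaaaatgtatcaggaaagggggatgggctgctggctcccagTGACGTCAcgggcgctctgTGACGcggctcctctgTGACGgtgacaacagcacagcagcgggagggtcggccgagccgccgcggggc
Sun5: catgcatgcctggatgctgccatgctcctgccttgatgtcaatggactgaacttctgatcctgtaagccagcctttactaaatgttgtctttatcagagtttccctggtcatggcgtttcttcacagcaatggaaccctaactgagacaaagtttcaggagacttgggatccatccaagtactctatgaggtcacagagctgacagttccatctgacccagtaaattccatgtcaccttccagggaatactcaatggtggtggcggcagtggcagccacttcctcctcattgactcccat
Sun3: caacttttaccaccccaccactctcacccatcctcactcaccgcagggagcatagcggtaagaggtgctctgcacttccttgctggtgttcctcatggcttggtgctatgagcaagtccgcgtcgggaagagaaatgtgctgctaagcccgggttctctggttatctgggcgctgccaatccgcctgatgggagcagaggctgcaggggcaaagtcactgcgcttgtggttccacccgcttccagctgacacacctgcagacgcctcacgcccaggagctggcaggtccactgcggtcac

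The Spag4 window holds TGACG 4 times when both strands are read. A pair of these overlap and form the full palindrome TGACGTCA, which runs from 37 to 30 bases before the start, and the others begin 18 and 2 bases before it. The full palindrome is found in 1.79% of all 32851 promoter windows of the same length in RefSeq, and TGACG in 20.8%. Neither is present in the windows of Sun5 and Sun3. The number of CpG dinucleotides was 14 in the Spag4 window, 13 in that of Sun3 and 2 in that of Sun5, beside a median of 7 over all windows. The Sun5 window lies inside the annotated span of the gene, which reaches to 153871365, and does not cover its upstream end. The Sun3 window lies inside Gm11992, a gene on the opposite strand that is described further on. These matches describe the letters only, and no binding was measured here.

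Dpy19l2, whose inner nuclear membrane protein holds the acrosome on the nucleus, was the most abundant of the 10 genes at d24 and in the adult. It had 0.255 FPKM at d12 (0.127 to 0.457, 11 fragments), 13.5 at d16 (12.5 to 14.7), 110.2 at d24 (108 to 113) and 129 in the adult (125 to 133). The largest step was thus from d12 to d16, at 53.0-fold (29.4 to 107), followed by 8.15-fold (7.49 to 8.87) and 1.17-fold (1.12 to 1.21). The last step turned to 0.837 when the libraries were scaled to the same FPKM sum and to 0.989 when scaled by the upper quartile. At d24 Dpy19l2 ranked 856 from the top among all genes. Dpy19l2 spans 139 kb on the minus strand of chromosome 9 (24557047 to 24696457) with 22 exons. Its promoter, at chr9:24696244-24696543 (minus strand), is shown for comparison with that of Spag4. It has 1 TGACG, which begins 10 bases after the start, and 18 CpG.
Dpy19l2: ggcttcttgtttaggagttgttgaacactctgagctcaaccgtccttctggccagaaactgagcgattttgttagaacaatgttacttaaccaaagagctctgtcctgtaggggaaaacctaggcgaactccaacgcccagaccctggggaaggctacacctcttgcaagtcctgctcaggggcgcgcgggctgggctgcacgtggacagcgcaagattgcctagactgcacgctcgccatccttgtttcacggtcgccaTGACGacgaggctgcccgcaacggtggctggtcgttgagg

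Rimbp3, a manchette protein, was likewise low at d12 and near its adult level at d24. It had 0.410 FPKM at d12 (0.276 to 0.585, 30 fragments), 6.61 at d16 (6.03 to 7.23), 88.6 at d24 (86.9 to 90.2) and 110.2 in the adult (107 to 113). The steps were 16.1-fold (11.2 to 24.2), 13.4-fold (12.2 to 14.7) and 1.24-fold (1.21 to 1.29), and the last was 0.893 with the libraries scaled to the same FPKM sum. Dpy19l2 exceeded Rimbp3 by 2.05-fold at d16 (1.81 to 2.32), 1.24-fold at d24 (1.21 to 1.28) and 1.17-fold in the adult (1.12 to 1.22), while at d12 the ratio of 0.623 (0.282 to 1.28) did not differ from 1 beyond counting error. Rimbp3 has 1 exon of 5848 bp on the plus strand of chromosome 16 (17208135 to 17213982), so its fragments cannot be told from unspliced RNA or traces of DNA by splicing. No 50-base stretch of Rimbp3, Dpy19l2, Spag4 or Sun5 transcripts was found in an annotated transcript of another gene.

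**Figure D2:**
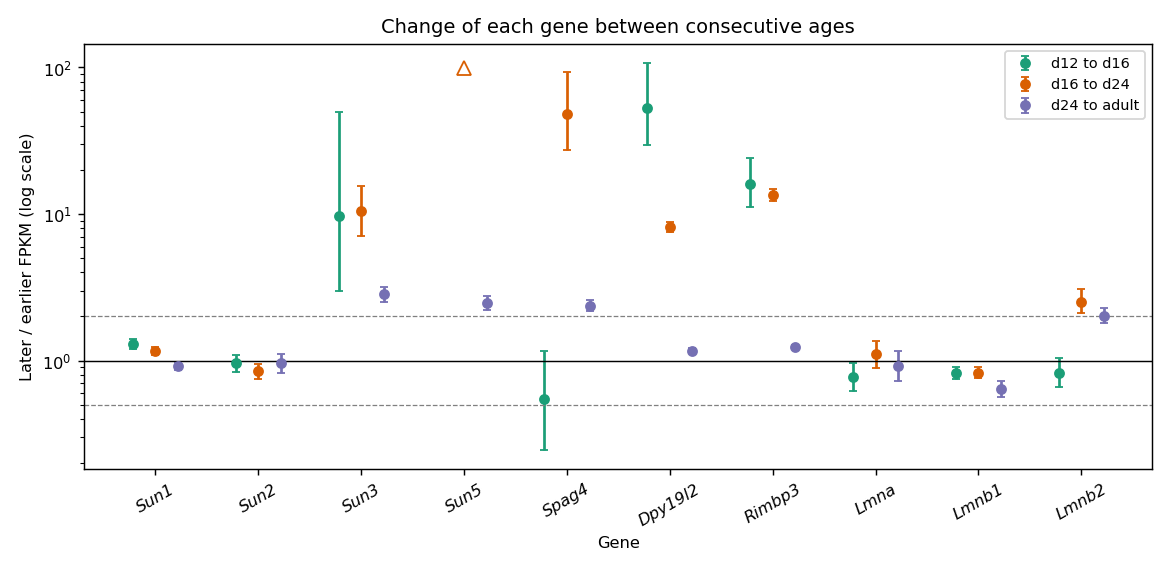
Ratio of the later to the earlier FPKM on a log scale for each gene and each pair of consecutive ages, with exact 95% Clopper-Pearson intervals of the counting error. Dashed lines mark 2-fold differences, and the open triangle is the exact lower limit for Sun5 from d16 to d24 (99.6-fold). Dpy19l2 has its largest step from d12 to d16, Sun5 and Spag4 from d16 to d24, and from d24 to the adult no ratio exceeds 2.83.

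Sun1 was the most abundant of the SUN genes at d12, d16 and d24 and stayed within 2-fold throughout. It had 26.6 FPKM at d12 (25.1 to 28.2), 34.4 at d16 (32.7 to 36.2), 39.8 at d24 (38.5 to 41.3) and 36.6 in the adult (34.5 to 38.7). From d12 to d16 it was 1.29 times higher (1.20 to 1.39). The adult level was 1.37 times that at d12 (1.27 to 1.49). It was 0.591 times with equal FPKM sums, 0.869 times with upper quartile scaling and 1.40 times with median of ratios scaling. The direction thus depends on the scaling. Sun1 lies on the plus strand of chromosome 5 (139200564 to 139249839), and its 7 curated transcripts begin at 2 starts and vary from 3602 to 4133 bases. The intervals of Sun1 rest on the shortest of them.

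Sun2 lay lower, at 10.2 FPKM at d12 (9.31 to 11.2), 9.77 at d16 (8.90 to 10.7), 8.26 at d24 (7.65 to 8.90) and 7.90 in the adult (6.98 to 8.92). The ratio of Sun1 to Sun2, which no scaling between libraries affects, was 2.61 at d12 (2.35 to 2.91), 3.52 at d16 (3.17 to 3.91), 4.82 at d24 (4.44 to 5.25) and 4.63 in the adult (4.05 to 5.31). The ratio was thus higher at d24 than at d12, and the intervals at d24 and in the adult overlapped. Sun2 lies on the minus strand of chromosome 15 (79724068 to 79742536), and 2.29% of its 50-base stretches are shared with the annotated transcript Gm16575. The promoters of both genes are dense in CpG, with 36 at the upstream start of Sun1 and 39 at Sun2. The Sun1 window, chr5:139200387-139200686 (plus strand), is printed as the contrast to the 2 CpG of Sun5, with its 2 copies of TGACG in capitals.
Sun1: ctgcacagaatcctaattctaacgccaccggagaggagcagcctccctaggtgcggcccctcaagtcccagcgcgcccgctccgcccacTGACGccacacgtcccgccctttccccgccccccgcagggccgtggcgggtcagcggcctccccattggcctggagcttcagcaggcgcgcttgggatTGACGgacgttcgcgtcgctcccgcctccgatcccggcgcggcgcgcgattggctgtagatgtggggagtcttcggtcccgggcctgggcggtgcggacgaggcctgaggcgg

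KASH proteins are the partners of SUN proteins in the outer membrane. Of 6 KASH genes, 4 reached 1 FPKM at d12 or in the adult. Of these 1 was higher and 1 lower, beside 36.6% and 24.2% of all genes. With equal FPKM sums 1 was higher and 3 lower, beside 22.7% and 52.1%. Ccdc155, which encodes KASH5, the meiotic partner of SUN1 that recruits dynein, was higher, with 6.54, 29.2, 62.4 and 58.9 FPKM. Syne2, a nesprin of somatic and germ cells, was lower, with 65.4, 46.0, 23.9 and 19.7 FPKM. Lrmp stayed under 0.5 FPKM in all 4 libraries. Ccdc155 was thus called higher from d12 to d16 and from d16 to d24, the ages at which Sun1 differed by less than 2-fold. Of 6 genes that attach telomeres to the envelope in meiosis, 4 were higher in adult testis than at d12 and none was lower, beside 36.6% and 24.2% of all genes. With equal FPKM sums the count was 1 higher and 2 lower, beside 22.7% and 52.1%. Spdya, an activator of CDK2 at telomeres, was the highest of them and had the largest rise, with 9.18, 27.7, 62.6 and 63.2 FPKM. Cdk2 itself had the smallest difference, with 21.1 FPKM at d12 and 22.1 in the adult.

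The makeup of the SUN family turned over between d16 and d24. Sun3, Sun5 and Spag4 together held 3.59% of the summed FPKM of the 5 SUN genes at d12 and 5.58% at d16, against 61.2% at d24 and 81.2% in the adult. Because these transcripts are shorter than those of Sun1 and Sun2, their shares of the fragments were lower, at 1.46% (0.949% to 2.15%), 2.00% (1.44% to 2.70%), 36.3% (35.1% to 37.5%) and 60.8% (59.2% to 62.3%). Sun1 alone held 69.7% of the summed FPKM at d12 and 15.4% in the adult, although its own level differed by less than 2-fold. In the adult Spag4 held 30.6%, Sun5 25.9% and Sun3 24.7%.

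Among the lamins, Lmnb1 and Lmnb2 exchanged places. Lmnb1, which encodes lamin B1, had 27.7 FPKM at d12 (26.0 to 29.5), 22.8 at d16 (21.2 to 24.4), 18.8 at d24 (17.8 to 19.9) and 12.1 in the adult (10.8 to 13.5). The adult level was 0.435 times that at d12 (0.382 to 0.496), and each of the 3 intervals of age contributed, with ratios of 0.821, 0.826 and 0.642. Lmnb2, which encodes lamin B2, had 4.33 FPKM at d12 (3.72 to 5.03), 3.58 at d16 (3.01 to 4.21), 9.05 at d24 (8.36 to 9.78) and 18.3 in the adult (16.7 to 19.9). It was 2.52-fold higher at d24 than at d16 (2.11 to 3.06) and 2.02-fold higher in the adult than at d24 (1.80 to 2.27). After scaling to equal FPKM sums these steps were 1.64 and 1.45, under the 2-fold limit. The ratio of Lmnb1 to Lmnb2 needs no scaling between libraries. It was 6.40 at d12 (5.44 to 7.55), 6.35 at d16 (5.31 to 7.64), 2.08 at d24 (1.89 to 2.29) and 0.661 in the adult (0.572 to 0.762).

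Lmna, which encodes lamins A and C, had 9.59 FPKM at d12 (8.23 to 11.0), 7.37 at d16 (6.23 to 8.71), 8.13 at d24 (7.18 to 9.14) and 7.46 in the adult (6.07 to 9.04). No step reached 2-fold, and the adult level was 0.778 times that at d12 (0.605 to 0.997). Scaled by the upper quartile it was 0.492 times, and with the same FPKM sum 0.335 times, both under the limit for a lower call. Median of ratios scaling gave 0.792 times, within 2-fold. Lmna held a nearly constant share of the summed lamin FPKM, 23.0%, 21.9%, 22.6% and 19.7%. Lmnb2 went from 10.4% to 48.3% and Lmnb1 from 66.6% to 31.9%. In the order of adult levels, Sun2 and Lmna at the bottom had overlapping intervals.

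Germ cells use short forms of lamins. Lamin C2 of spermatocytes comes from an internal start of Lmna and lamin B3 of spermatids comes from Lmnb2. In curated RefSeq transcripts both genes have an internal start, 10040 bp downstream of the most upstream curated start in Lmna and 11833 bp downstream in Lmnb2. The coding sequence from it is 1389 bases long in Lmna, against 1998 for the longest, and 1425 in Lmnb2, against 1848. Gene-level FPKM adds both forms, so which form of Lmnb2 lies behind its higher level cannot be told apart here. The main start of Lmnb2 has 24 CpG in its window and the internal start has 6. Lmna lies on the minus strand of chromosome 3 (88481148 to 88509932), Lmnb2 on the minus strand of chromosome 10 (80901363 to 80918245) and Lmnb1 on the plus strand of chromosome 18 (56707813 to 56753424).

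**Figure D3:**
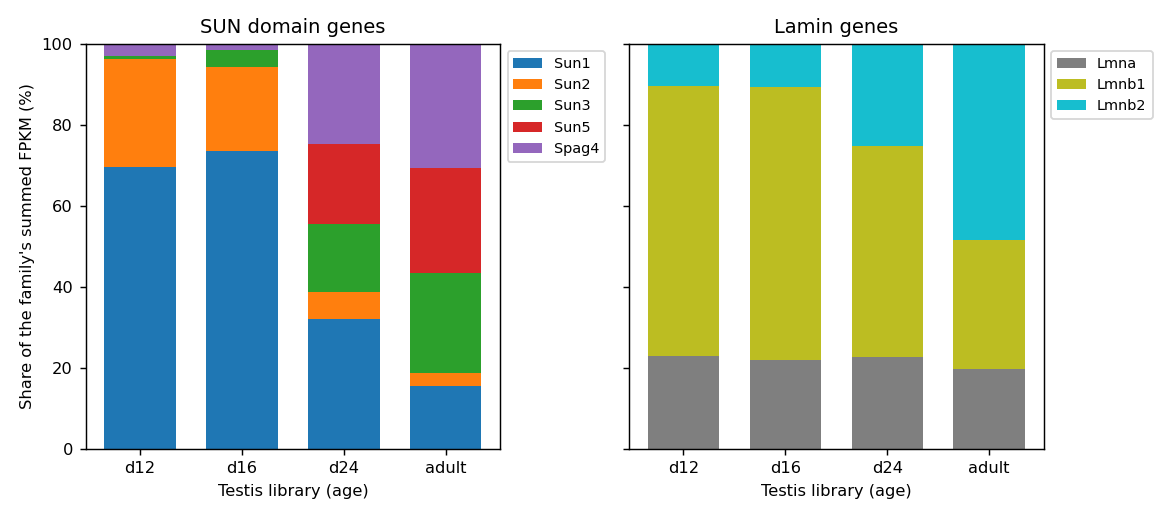
Share of each gene in the summed FPKM of the 5 SUN domain genes (left) and of the 3 lamin genes (right) in each testis library, in percent. Sun3, Sun5 and Spag4 together go from 3.59% at d12 to 81.2% in the adult, while Lmna keeps between 19.7% and 23.0% of the lamin sum and Lmnb2 goes from 10.4% to 48.3%.

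The rising genes came near their adult level at different ages. At d24 Dpy19l2 stood at 85.6% and Rimbp3 at 80.3% of the adult FPKM, while Lmnb2 stood at 49.5%, Spag4 at 42.2%, Sun5 at 40.3% and Sun3 at 35.4%. At d16 the values were 10.51% for Dpy19l2, 5.99% for Rimbp3, 19.6% for Lmnb2, 3.37% for Sun3 and 0.881% for Spag4, and Sun5 had no fragment. The marker sums moved alongside. The 6 pachytene markers stood at 17.5% of their adult sum at d16 and 80.6% at d24, the 6 round spermatid markers at 0.823% and 32.6%, and the 6 elongating spermatid markers at 0.0168% and 8.91%. Single markers varied widely around these sums. At d24 the pachytene markers ran from 40.4% (Pgk2) to 122% (Piwil1) and the round spermatid markers from 19.6% (Tssk2) to 78.2% (Acr), so the lists overlapped and do not place the members. All 6 genes of the pachytene list were detected in every library. The round spermatid list had 3 of 6 genes above 0 at d16, and its sum there was nearly all Acr, at 8.35% of its adult level. The part of cell makeup in these levels was not tested.

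**Figure D4:**
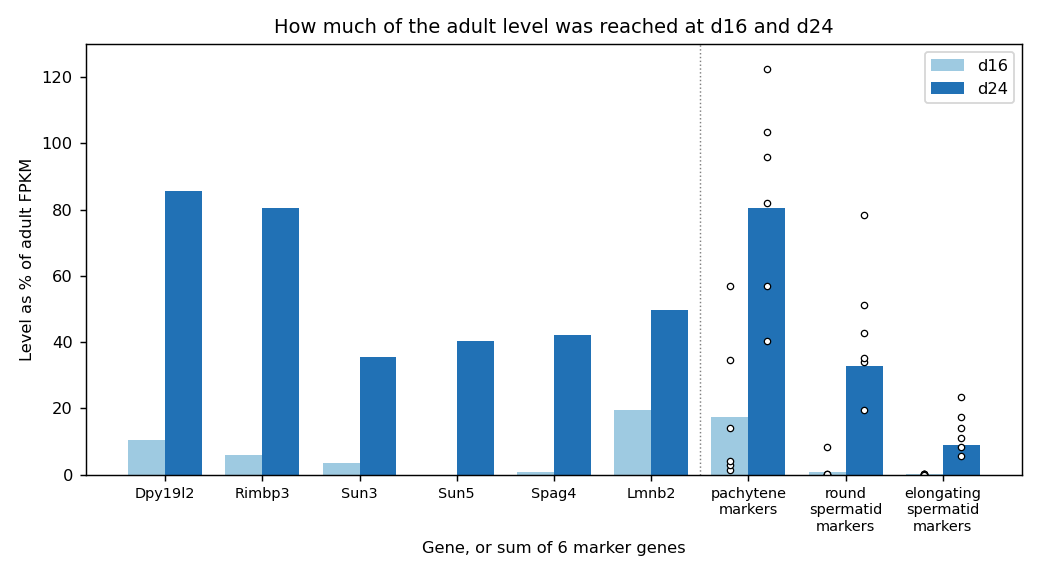
FPKM at d16 (light) and d24 (dark) as a percentage of the adult FPKM for the 6 genes that were higher in the adult than at d12, and for the summed FPKM of 6 marker genes each of pachytene spermatocytes, round spermatids and elongating spermatids. Open circles are the single marker genes. At d24 Dpy19l2 (85.6%) and Rimbp3 (80.3%) stand above Sun3, Sun5 and Spag4 (35.4% to 42.2%), and the pachytene and round spermatid markers overlap, from 40.4% to 122% and from 19.6% to 78.2%.

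The study selected stage-specific genes by the age at which they first reached 2 FPKM and by a further limit of under 30 FPKM. The second limit was not applied here, and the paper does not name the stage it refers to. At d24 Dpy19l2 (110.2 FPKM), Rimbp3 (88.6) and Spag4 (30.6) exceeded it, while Sun5 (24.7) and Sun3 (20.7) did not. In the adult all of these genes exceeded it. By the first threshold 5 of the 10 genes were present at d12 (Sun1, Sun2, Lmna, Lmnb1 and Lmnb2), Dpy19l2 and Rimbp3 first reached it at d16, and Sun3, Sun5 and Spag4 at d24. Of all genes, 44.9% were present at d12, 3.55% first reached it at d16 and 6.30% at d24. Among the 852 genes that first reached it at d16, Dpy19l2 ranked 145 and Rimbp3 167 by adult FPKM. The median gene of this group stood at 86.6% of its adult level at d24, with quartiles of 68.3% and 108%, so both genes lie in the middle of it. Among the 1510 genes of d24, Spag4 ranked 307, Sun5 357 and Sun3 369 by adult FPKM. Here the median was 44.8% with quartiles of 28.5% and 79.4%, and the 3 SUN genes again lay between the quartiles.

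Genes of the structures that these proteins contact were read from lists. The lists were chosen with earlier results of these data known, so their counts only describe the genes named in them. From d12 to adult the median log2 difference was 4.09 for manchette genes, 4.65 for genes of acrosome attachment, 7.90 for those of head and tail coupling, 1.29 for telomere attachment, 0.24 for prelamin processing, 0.09 for the inner membrane list and -0.39 for KASH genes, beside 0.21 over all counted genes. With equal FPKM sums the last 3 were -0.95, -1.12 and -1.57, where all genes were at -1.10, and the first 3 stayed at 2.88 or more.

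All 13 manchette genes were higher in the adult than at d12, as were 36.6% of all genes. With equal FPKM sums 11 were higher, beside 22.7%. Meig1, which carries cargo on the manchette, was the highest, with 11.1, 150.4, 658.2 and 1018 FPKM. Spem1, needed to remove cytoplasm from the sperm head, had the largest rise, from 0 at d12 to 20.3 at d24 and 189 in the adult, and Clip1, a microtubule tip protein, the smallest, from 24.1 to 85.7. Of the 13, 9 of 12 counted genes were higher between d12 and d16, 11 of 13 between d16 and d24 and 3 of 13 after that, beside 11.7%, 27.8% and 13.4% of all genes.

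Of 11 genes that fix the acrosome on the nucleus or form it, 9 were higher and none lower in the adult than at d12. The shares of all genes were 36.6% and 24.2%. With equal FPKM sums 7 were higher and 1 lower, beside 22.7% and 52.1%. With upper quartile scaling the counts were 8 and 1, beside 27.9% and 39.6%. Spata16, an acrosome protein, was the highest, with 0.974, 57.5, 380.0 and 475.5 FPKM. The gene listed as 1700015E13Rik, now named Spata46, had the largest rise, with 0.336, 0.561, 112 and 280.6 FPKM. Vps54, a Golgi tethering protein, had 23.0 FPKM at d12 and 12.5 in the adult and did not reach 2-fold. Between d12 and d16, 3 of 9 counted genes were higher, 8 of 11 between d16 and d24 and 3 of 11 after that, where all genes had 11.7%, 27.8% and 13.4%.

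Of 9 genes that couple head and tail, the place where SUN5 acts, 8 were higher and none lower in the adult than at d12. Among all genes 36.6% were higher and 24.2% lower. With equal FPKM sums 7 were higher and none lower, beside 22.7% and 52.1%. Oaz3 was the highest, with 0.673, 0.421, 126 and 1129 FPKM, and Pmfbp1, which works beside SUN5, had the largest rise, with 0.188, 0.212, 131 and 543.5 FPKM. Cntrob, a centriole protein, stayed within 2-fold, with 4.99 FPKM at d12 and 6.81 in the adult. Between d12 and d16, 3 of the 4 counted genes were higher, then 7 of 9 and 5 of 9 in the later intervals, against the same 11.7%, 27.8% and 13.4%.

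Of 11 genes for other proteins of the inner membrane and lamina, 3 were higher in the adult than at d12 (Lemd1, Banf2 and Tor1aip1), 1 was lower and 7 were neither, beside 36.6% and 24.2% of all genes. With equal FPKM sums 3 were higher and 6 lower, beside 22.7% and 52.1%. With upper quartile scaling the counts were 3 and 3, beside 27.9% and 39.6%. Banf2, a relative of the chromatin bridging factor BAF, was listed at 0 at d12 and d16 and had 22.7 FPKM at d24 and 100.01 in the adult. Tor1a, which encodes torsin-1A, was the gene that was lower, with 6.21 FPKM at d12 and 2.70 in the adult. Of the 5 genes that process prelamin A, 2 were higher, a share near the 36.6% of all genes, and none was lower, beside 24.2%. With equal FPKM sums 1 was higher and 2 lower, beside 22.7% and 52.1%. Fnta, a subunit of the farnesyltransferase, was the highest, with 22.2 FPKM at d12 and 60.0 in the adult. Icmt, the methyltransferase of the pathway, had the largest rise, from 4.68 to 22.0 FPKM. The protease gene Zmpste24 had 19.97 FPKM at d12 and 12.1 in the adult, within 2-fold as its substrate gene Lmna was.

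Relatives of Dpy19l2 and Rimbp3 differed less between the ages. Dpy19l1, a C-mannosyltransferase gene that lies 53907 bp from Dpy19l2 on the same strand, had 11.8, 17.5, 26.9 and 31.7 FPKM, which is counted as higher over the whole span. Dpy19l3 had 2.24 FPKM at d12 and 1.21 in the adult. Bzrap1, a relative of Rimbp3, went from 0.252 to 1.65 FPKM and was higher, and Rimbp2 stayed under 0.5 FPKM in every library. Of 5 such relatives, 4 could be counted. As deposited 2 were higher and none lower, and with equal FPKM sums or upper quartile scaling 1 was higher and 2 lower, beside the shares of all genes given above for each scaling.

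Likeness of pattern was measured as the Euclidean distance between centred log2(FPKM + 0.1) values over the 4 libraries, against 15219 genes that reached 1 FPKM in at least 1 library. The values share the same libraries, so a small distance describes these 4 libraries only. Distances of genes with few or no fragments at d12 or d16 depend on the 0.1 FPKM added, and no other value was tried for them. Nearest to Sun5 were 1700041C23Rik at 0.0580 and 4933405O20Rik at 0.0624, both also listed at 0 at d12 and d16. Nearest to Dpy19l2 were Slco6c1 at 0.0754 and Dkkl1 at 0.108, and nearest to Rimbp3 were Lrrc63 at 0.122 and 1700017G19Rik at 0.230. Few genes resembled Sun3 or Spag4. Within a distance of 0.5 there were 11 genes for Sun3, led by 1700018B08Rik at 0.272 and 4933406K04Rik at 0.311, and 15 for Spag4, led by 1700007K13Rik at 0.226 and Vash2 at 0.227. For Sun5, Dpy19l2 and Rimbp3 the numbers were 43, 36 and 35.

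The level genes Sun1, Sun2 and Lmna, and Lmnb1, had many neighbours by this measure. There were 1924 genes within 0.5 of Sun1, led by Zfp62 at 0.0127 and 9930021J03Rik at 0.0299, and 2746 of Sun2, led by Afmid at 0.0214 and Exosc2 at 0.0319. Lmna had 2058, led by Aebp2 at 0.0348 and Thbs3 at 0.0481, and Lmnb1 had 2013, led by Wsb2 at 0.0403 and Mad2l1 at 0.0529. Lmnb2 stood between, with 161, led by Ntrk3 at 0.0411 and Arid3a at 0.0675. Among the 10 genes themselves the closest pairs were Sun2 with Lmna at 0.296 and, among the strongly rising genes, Dpy19l2 with Rimbp3 at 1.09 and Sun3 with Rimbp3 at 1.11.

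A few members overlap other genes. Gm11992 starts head to head with Sun3 on the opposite strand, and 400 bp of the genes and 123 exonic bases overlap. Gm11992 had 0.499, 4.33, 29.1 and 27.3 FPKM, above Sun3 at d24 and below it in the adult. Of the 50-base stretches of Sun3, 5.77% are shared with Gm11992. The libraries and the mapping were strand-specific, but whether the counting used strand is not stated, so reads of the overlap may count for either gene. Cypt4, a gene of spermatids, lies on the opposite strand inside Dpy19l2 with no exonic overlap, and had 0.124 FPKM at d12, 136 at d24 and 446 in the adult. At d16, where Dpy19l2 had 13.5 FPKM, Cypt4 was listed at 0.000463.

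Of the 10 genes, 8 had a promoter window in the RefSeq table, with 12 windows in all. Their CpG number divided the level genes from most of the rising ones only in part. Sun2 and the upstream start of Sun1 lay above 95.6% and 93.8% of all windows, and the main start of Lmnb2 above 80.0%, Dpy19l2 above 70.3%, Spag4 above 63.7% and Sun3 above 62.1%. Sun5 lay above 14.1%, and the upstream curated start of Lmna, a gene with a level pattern, above 5.43%. The annotated spans of these genes reach upstream of their windows, to 153871365 for Sun5 and 88509932 for Lmna. Their CpG numbers therefore may not describe the upstream ends of the genes. TGACG was found in 3 of the 8 genes, Spag4, Sun1 and Dpy19l2, of which Sun1 did not reach 2-fold. By window this is 3 of 12, near the 20.8% of all windows that hold it.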

How the data were processed

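Whole-testis RNA-seq libraries of d12, d16, d24 and adult C57BL/6J mice were grouped by their GEO labels, 1 per stage. The authors aligned the pairs to mm10 (GRCm38) using TopHat2 (2.1.0), Bowtie (1.1.2) and RefSeq genes, kept 1 alignment a pair, and deposited FPKM values made by Cuffdiff (Cufflinks 2.2.1) after correcting for multi-reads and sequence bias. All 4 columns were used. The FPKM sums of 283580, 307964, 472726 and 659202 differ, so 3 other scalings were tried, namely equal FPKM sums, upper quartile and median of ratios.

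For genes with 1 curated transcript (14603), low FPKM values times length are whole multiples of 1 fragment (92.0% to 92.7% within 0.05 of a whole number), which gave the fragments. Where lengths differed by up to 1.1-fold the mean was used, otherwise (Sun1 and Lmna) the shortest transcript, so their fragments are approximate. On 1 kb, 3 fragments are 0.240 FPKM at d12 and d16, 0.137 at d24 and 0.337 in the adult. The adult value exceeds that at d12 although more fragments were recovered in the adult. The deposited FPKM are thus not scaled to the depth of each library alone. Calls used a pseudocount of 0.1 FPKM and a minimum of 1 FPKM, without a test. Symbols were matched to GRCm38.p6 (174 of 23983 unmatched). Promoter windows are RefSeq sequences. Scripts ran in python 3.11.15 with pandas 2.3.3 and scipy 1.17.1, and were tested on simulated data.

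All 10 members were named with every value. From each list the highest gene, those with the largest rise and fall, and genes under 0.5 FPKM were named, and the 2 nearest genes by pattern. The members and lists were chosen with earlier results of these data known. Lemd1 and Tor1aip1 were named after their values were seen.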

Additional observations from a re-analysis of the deposited data

How the results depend on the processing

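With 1 library per stage no replicate could be left out, and no spread between animals bounds any value. No paired analysis was possible because each stage has 1 library and no test was made. Scaling the libraries to the same FPKM sum shifts the log2 difference from d12 to adult by -1.22 for every gene, and upper quartile scaling by -0.66. Median of ratios scaling shifts it by 0.026 and is thus close to the deposited scale. Of the 168 alternative values over 54 results, none turned a 2-fold higher call into a lower one or the reverse. Ratios within 2-fold did change direction under equal FPKM sums. Those of Sun1 and Lmna from d16 to d24 went from above 1 to below 1. So did those of Dpy19l2 and Rimbp3 from d24 to adult. With the same FPKM sum, 1 member instead of 4 was higher from d24 to adult and 1 instead of 0 lower. Among all genes these numbers were 1024 instead of 1899 and 1255 instead of 295. From d12 to adult 3 members instead of 1 were lower, with 7840 instead of 3635 of all genes. Upper quartile scaling also gave 3, with 5956 of all genes. With a 4-fold limit 0 members were higher from d24 to adult, beside 567 of 14185 counted genes. From d12 to adult 0 were lower, beside 1057 of 15015. With a 1.5-fold limit 1 member was lower from d12 to d16, beside 1960 of 13174. From d24 to adult 1 was lower, beside 1164 of 14185. Counted as fragments, Sun3, Sun5 and Spag4 held 1.46%, 2.00%, 36.3% and 60.8% of the SUN family in the 4 libraries, as longer transcripts give more fragments. Lmna held 13.7%, 13.0%, 13.1% and 10.9% of the lamins. That share rests on its shortest transcript, of 1537 bases, while its longest has 3173. Its difference from the FPKM share thus depends on the length assumed. Other counts stayed within 1.5 times. Of 84 ratios of single genes under other scalings, 49 stayed within the counting interval and 35 moved. Of 20 stages of first reaching the threshold, 3 changed at 1 or 5 FPKM (Sun3 and Spag4 at 1, Lmnb2 at 5). At d12 Sun3, Sun5, Dpy19l2 and Spag4 rest on 0 to 22 fragments each, and at d16 Sun5 rests on 0 and Spag4 on 12.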
